A study of Ambystoma mexicanum with 20 samples.

Results

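The RNAs described here are 300 of the 32960 features in a count table of axolotl (Ambystoma mexicanum, a salamander) oocytes, the immature egg cells. They are high in segment E, the vegetal end of the oocyte, and still clearly present in segment D next to it. They were chosen from the deposited counts themselves. The level of a feature was its counts-per-million (CPM, the count divided by the column total), averaged over 4 oocytes in each of the segments A to E. Its share in a segment was that segment's mean as a percentage of the sum of the 5 means. A member had a mean of at least 5 CPM over the 20 libraries, an E share of at least 50% and under 80%, a D share of at least 20%, and more CPM in E than in A in all 4 oocytes. In all, 311 features met this, and the 300 with the highest mean CPM were kept. The 11 left out had means from 5.05 to 5.46 CPM, just below the lowest member at 5.51 CPM.

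Amphibian oocytes are polarised along an axis from the animal pole, where the nucleus lies, to the yolk-rich vegetal pole. In the frog Xenopus, RNAs are carried to the vegetal cortex by an early route, through the mitochondrial cloud, and by a later route that uses microtubules and motor proteins. Among the RNAs so placed are those of the germ plasm and those of factors that pattern the endoderm and mesoderm. In axolotl, germ cells are known to arise by induction in the embryo and not from inherited germ plasm. The feature identifiers of this table come without gene names, and 0 of them were found in the RefSeq gene table used, so no member could be placed among such genes and the segment labels could not be checked against known polar RNAs. Members are therefore given by identifier for the 2 most abundant, and otherwise by their rank of mean CPM.

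The material was 4 oocytes with no treatment named in the labels. Each was embedded and sliced frozen, and the slices made up 5 segments, from A at the animal end through B, C and D to E at the vegetal end. Every segment of each oocyte was sequenced as a library of its own from 80 ng of total RNA after removal of ribosomal RNA, so a level is a proportion of the RNA in that segment and says nothing of its amount. Oocyte numbers 1 to 4 are the identifiers in the labels, and the sample titles number the same oocytes differently. Library totals ran from 806943 counts (segment E of oocyte 2) to 15554319 (segment A of oocyte 4).

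The members together made up a small part of the animal segments and a much larger part of the vegetal end. In segment A they held 0.474%, 0.506%, 0.396% and 0.481% of the library counts in oocytes 1 to 4, and in segment B 0.451%, 0.396%, 0.423% and 0.493%. In segment C the values were 0.514%, 0.459%, 0.831% and 0.752%. In segment D they were 1.25%, 1.86%, 3.48% and 2.89%, and in segment E 5.27%, 5.80%, 6.41% and 6.62%. Segments A and B overlapped throughout. D lay above C and E above D in every oocyte, as the choice of members favours. From A to E in order, the mean shares (± SD, n = 4) were 0.464% ± 0.0473, 0.441% ± 0.0416, 0.639% ± 0.181, 2.37% ± 1.01 and 6.03% ± 0.611.

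**Figure D1:**
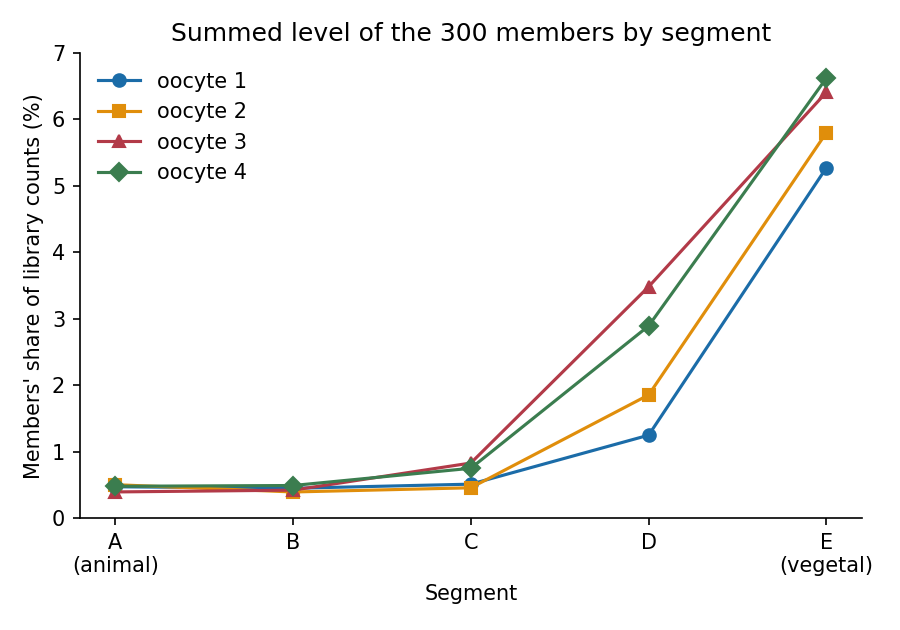
Share of all library counts (%) held by the 300 members in segments A to E, with a line for each of the 4 oocytes. The lines run together at about the same low level in A and B, spread widest relative to their height in D (1.25% to 3.48%) and end between 5.27% and 6.62% in E.

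Single members followed the same course with different steepness. Over the members, the median share was 58.3% for E and 23.7% for D, with 6.68% for C, 4.27% for B and 4.62% for A. These shares are what the members were chosen on and are given without a test. The median member was 2.45-fold higher in E than in D and 3.78-fold higher in D than in C. The ratio of E to D ran from 1.33 to 3.70, with 49 members under 2-fold and 48 at 3-fold or more. The ratio of D to C varied more, from 1.52 to 17.4, and 132 members were at least 4-fold higher in D than in C. A D share of 30% or more was reached by 19 members, and an E share of 70% or more by 28. The segments A, B and C together held from 2.73% to 29.5% of a member's sum, with a median of 15.8%, so members ranged from nearly absent to plainly present outside D and E. In 250 of the 300 members the D mean exceeded those of A, B and C added together.

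At the edges of the rule, the lowest E share of a member was 50.1%, and the next feature outside, with a D share of at least 20%, had 49.98%. The lowest D share of a member was 20.1% and the highest D share just outside was 19.99%. The upper limit of 80% on E was not reached, since a D share of 20% leaves no more, and the highest E share was 75.95%. A further 14 features met every condition except more CPM in E than in A in all oocytes.

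**Figure D2:**
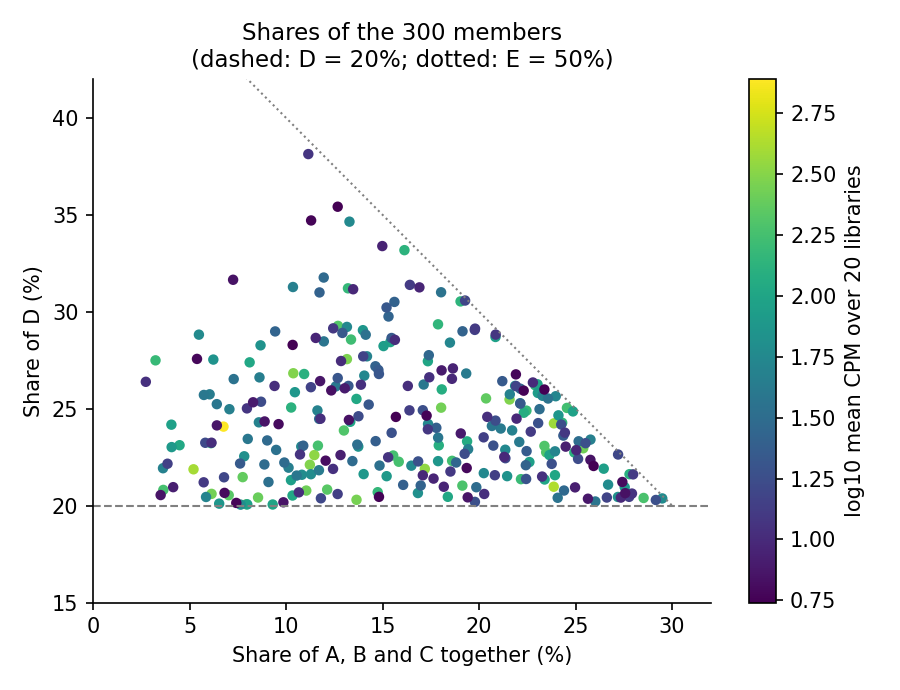
D share against the share of A, B and C together for each of the 300 members, coloured by log10 mean CPM. The dashed line is the minimum D share of 20% and the dotted line an E share of 50%. The points lie between them, with quartiles of the D share at 21.8% and 26.2% and the highest at 38.1%. Abundant and rare members are mixed.

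The shares of D and E, which the rule holds within limits for every member, hardly differed with abundance. The 100 most abundant members (57.8 to 771 CPM) had a median D share of 22.99% and E share of 59.6%. The 100 least abundant (5.51 to 17.1 CPM) had 23.9% and 58.4%. Across the 300 members, Spearman's rho between mean CPM and E share was 0.07; the members share the same 20 libraries, and this is a description. Abundance itself was uneven, and the 10 most abundant members held 19.4% of the summed CPM of all 300, while the 100 most abundant held 77.8%.

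The most abundant member, AMEXTC_0340000045372, was of the steep kind. It measured 73.0, 109.5, 47.3 and 63.3 CPM in segment A of oocytes 1 to 4, 61.4, 49.0, 45.1 and 55.9 in B, and 85.7, 56.7, 217 and 178 in C. In D it measured 429.9, 721, 1568 and 995 CPM, and in E 1926, 2958, 3254 and 2530.4. The libraries of A, B and C overlapped, those of D were all above them, and those of E were all above D. Segment D averaged 928 ± 485 CPM and segment E 2667 ± 576 CPM (SD, n = 4), which are 24.1% and 69.2% of its sum. The fitted log2 fold change (edgeR) was 2.91 (SE 0.43) for D over C and 1.66 (SE 0.41) for E over D.

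AMEXTC_0340000178849, the next in abundance, had a shallower course on a higher base. It measured 180.3, 160.1, 138 and 171 CPM in A of oocytes 1 to 4, 165, 146, 161 and 177 in B, and 186, 158.5, 207 and 205 in C. In D it measured 275, 365, 692 and 473 CPM, and in E 871, 1274, 1349 and 1254. Again D lay above C and E above D without overlap. Segment A averaged 162 ± 18.3 CPM, segment D 451 ± 179 and segment E 1187 ± 214 (SD, n = 4), and D and E held 20.98% and 55.2% of its sum. The fitted log2 fold change (edgeR) was 1.36 (SE 0.23) for D over C and 1.54 (SE 0.23) for E over D. With the authors' constants as scaling, the value for D over C turned to -0.52.

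**Figure D3:**
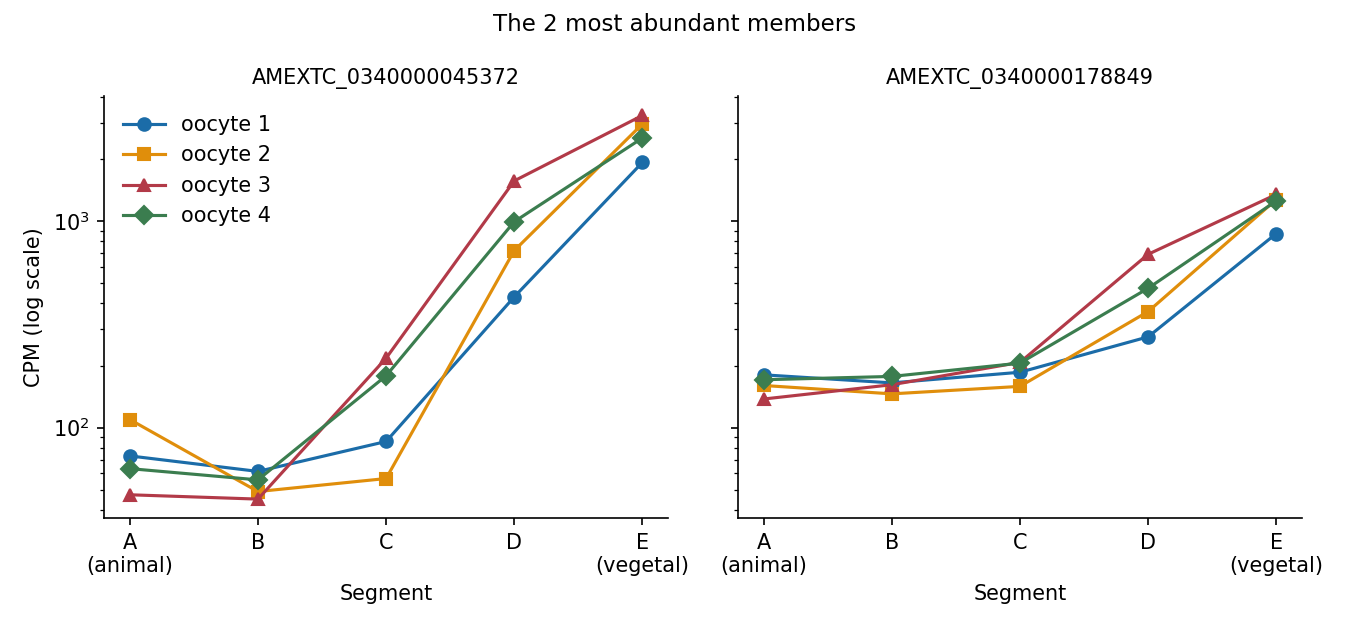
CPM on a log scale in segments A to E for the 2 most abundant members, with a line for each oocyte. Both are low in A, B and C beside D and E; oocyte 3 is highest and oocyte 1 lowest in segment D of both.

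The member ranked 3 by mean CPM resembled the most abundant one. From A to E its mean CPM (± SD, n = 4) was 25.7 ± 10.3, 18.3 ± 10.6, 58.7 ± 38.3, 432 ± 260.5 and 1439.5 ± 305. Its D values split into a lower and a higher pair, 224 and 206 CPM in oocytes 1 and 2 against 562 and 736 in oocytes 3 and 4. The members of rank 3 to 10 had D shares between 21.9% and 27.6% and E shares between 51.9% and 72.9%. At the other extreme stood the member of rank 231, looked up after its values were seen because it had the highest D share, 38.1%. It measured 9.24, 21.7, 30.4 and 29.0 CPM in D of oocytes 1 to 4 and 29.5, 31.0, 31.1 and 28.6 CPM in E, so D and E overlapped and the value in E was nearly constant. In A it had from 6 to 10 counts per library.

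Whether the pattern was present in an oocyte that had no part in picking the features was read by applying the rule to 3 oocytes and looking at the other one. The values of D and E in that oocyte were not used to pick the features. The rule itself was set with earlier results of these data known, so the reading is not fully independent. With oocyte 1 left out, 340 features met the rule and the top 300 were read in it, where E exceeded D and D exceeded each of A, B and C in 276 (92%). With oocyte 2 left out this order held in 290 of 300 (96.7%), with oocyte 3 in 210 of 230 (91.3%) and with oocyte 4 in 281 of 293 (95.9%). Among all features with the same minimum level, the order was found in 9.39%, 11.4%, 8.89% and 9.39% in the same oocytes. Averaged over the 4, it held for 94.0% ± 2.71 of the chosen features (SD, n = 4). The sets overlap, since any pair of them shares oocytes, so these are 4 readings and not 4 separate trials, and no test was made.

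The division between D and E carried over less closely than the order. In the oocyte left out, the median D share was 15.3% in oocyte 1, 19.9% in oocyte 2, 31.6% in oocyte 3 and 25.8% in oocyte 4, against 19.5%, 19.8%, 18.6% and 19.6% for all features of the same minimum level. The median E share was 65.1%, 63.7%, 51.3% and 55.1%, against 17.6%, 16.1%, 16.5% and 16.6%. The limits of the rule, an E share of 50% to 80% with a D share of at least 20%, were met within that oocyte by 40 of 300 features in oocyte 1 (13.3%), 122 of 300 in oocyte 2 (40.7%), 116 of 230 in oocyte 3 (50.4%) and 186 of 293 in oocyte 4 (63.5%). In oocyte 1, 229 of the 300 had at least 50% in E but under 20% in D. The order of the segments was thus found in over 90% of the features in each oocyte left out, and a division between D and E within the limits in 13.3% to 63.5%.

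**Figure D4:**
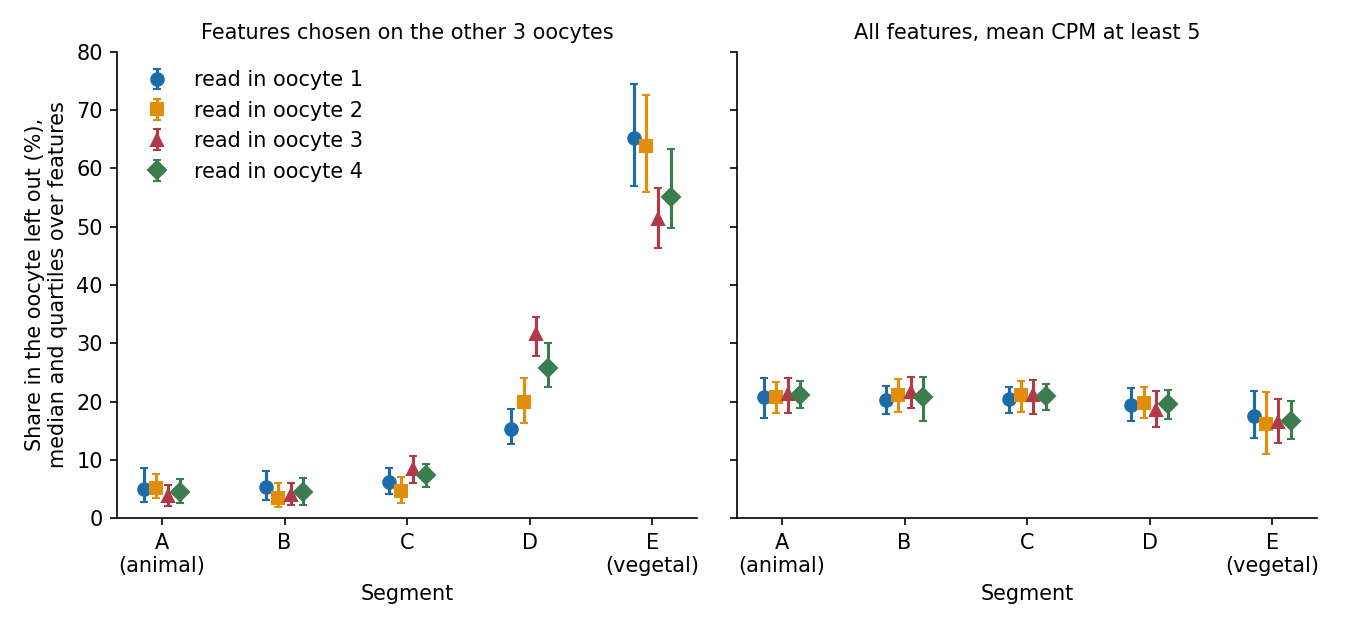
Share (%) of each segment in the oocyte left out of the choice, as median and quartiles over features, for features chosen on the other 3 oocytes (left) and for all features with the same minimum level (right). On the left D lies above A, B and C in each oocyte but moves from 15.3% to 31.6%; on the right the medians of the segments stay between 16.1% and 21.6%.

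The members' level in segment D was where the oocytes differed most. Of the summed CPM of the members, E exceeded D 4.22-fold in oocyte 1, 3.13-fold in oocyte 2, 1.84-fold in oocyte 3 and 2.29-fold in oocyte 4. D exceeded C 2.43-fold, 4.04-fold, 4.19-fold and 3.85-fold in the same order. So on CPM the larger step lay between D and E in oocyte 1 and between C and D in the other 3. The rule bears on this, since its limits cap the ratio of the E mean to the D mean but not that of D to C. For the 82 features, which were not held to the D limit, E over D was 14.9, 16.5, 5.53 and 7.68 in oocytes 1 to 4. Their D over C was 3.87, 5.38, 10.6 and 10.8. On the authors' scaled values D over C of the members was 0.687, 1.14, 1.28 and 1.11 in oocytes 1 to 4. E over D of the members was 3.32, 2.51, 1.43 and 1.86, so that the step to E was the larger in all 4. For the median member, the highest oocyte exceeded the lowest 3.16-fold in D, against 1.72-fold for all features with a mean of at least 5 CPM. In E the ratio was 1.66-fold against 1.78-fold. The median SD over the 4 oocytes of log2(CPM + 0.5) was 0.73 for members and 0.36 for all such features in D. It was 0.60 and 0.28 in C, 0.43 and 0.28 in B, and 0.44 and 0.28 in A. In E it was 0.32 for members and 0.41 for all such features. So E alone had a smaller spread among the members than among all features. A wide spread in D was not particular to the members. The summed D level of the 82 features ran from 0.0912% of the library in oocyte 1 to 0.573% in oocyte 3. For the 159 other vegetal features described below it ran from 0.449% to 1.62% in the same oocytes. For the members it ran from 1.25% to 3.48%. Relative to its lowest value, the range was wider in both other sets than in the members. Members had lower CPM in A and B than in E, but their counts also followed library depth. Summed over the members, counts ran from 7238 (B of oocyte 4) to 74878 (A of oocyte 4) in A and B. In E they ran from 46816 (oocyte 2) to 366350 (oocyte 4). The part of counting error in these spreads, that of D included, was not tested.

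The balance between D and E was compared between oocytes. D as a percentage of D and E together had a median of 20.2% in oocyte 1, 25.3% in oocyte 2, 36.2% in oocyte 3 and 30.97% in oocyte 4. It was highest in oocyte 3 for 211 of the 300 members (70.3%) and lowest in oocyte 1 for 222 (74%). Of all features with a mean of at least 5 CPM and counts in D or E of every oocyte, these were 21.8% and 32.4%. The full order of the medians, from oocyte 1 through 2 and 4 to 3, was found in 129 members (43%), beside 5.67% of all features with a mean of at least 5 CPM and counts in D or E of every oocyte. Across all features with a mean of at least 5 CPM the medians were 52.9%, 55.1%, 52.8% and 54.1%. Other vegetal RNAs moved alike. For the 82 features with at least 80% in E, more in E than in A in all oocytes and the same minimum level, the medians were 5.99%, 6.60%, 16.5% and 10.5%, and for the 159 with an E share of 50% to 80% and a D share under 20% they were 14.2%, 15.2%, 26.7% and 18.9%. Oocyte 3 was highest in 67 of the former (81.7%) and 120 of the latter (75.5%), against 21.8% of all features. Oocyte 1 was lowest in 52.4% of the former and 49.7% of the latter. The full order from oocyte 1 through 2 and 4 to 3 was found in 37.8% and 28.9%. The D libraries held 5409961, 3589203, 4248785 and 7587626 counts in oocytes 1 to 4. The E libraries held 6651808, 806943, 2698617 and 5531886. The part of depth in these differences was not tested. Where the cuts between segments fell in each oocyte is not stated in the labels, and its part in these differences was not tested.

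**Figure D5:**
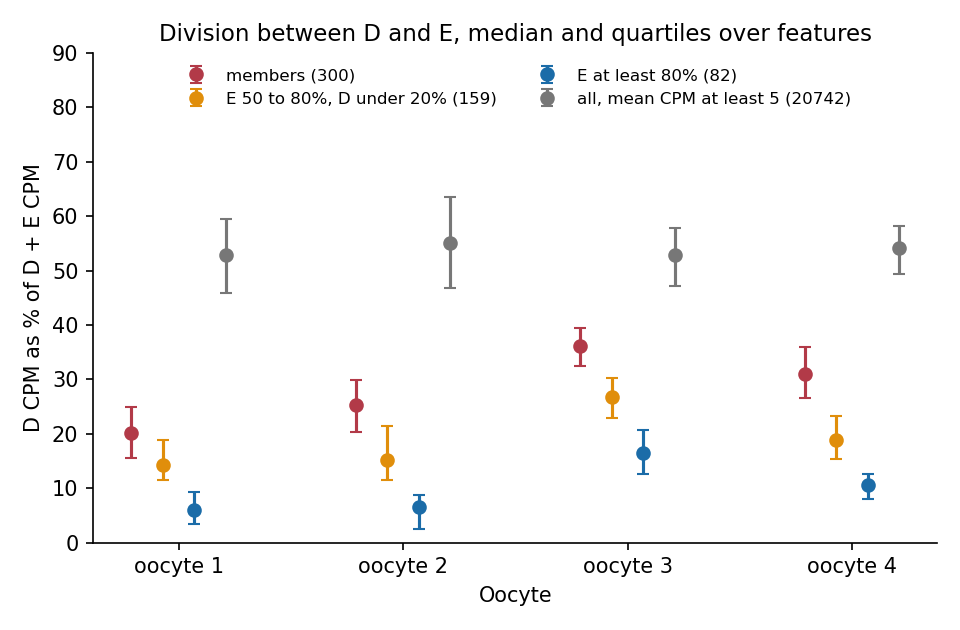
D as a percentage of D plus E CPM in each oocyte, as median with quartiles over features, for the 300 members, 2 other sets of vegetal features and all features with a mean of at least 5 CPM. All 3 vegetal sets are highest in oocyte 3 and lowest in oocyte 1, while the value for all features stays between 52.8% and 55.1%.

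Levels between whole oocytes were compared with the segment held fixed, which the rule did not use beyond its minimum level and the direction in each oocyte. Of the 300 members, 63 (21%) differed between oocytes by edgeR's quasi-likelihood F-test (adjusted p below 0.05), beside 26.2% of all features tested and 31.6% of those with a mean of at least 5 CPM. With all libraries thinned to the size of the smallest, fewer features passed the filter. There 71 of the 290 members tested differed (24.5%), beside 20.3% of the 17196 features tested. The members' share thus lay below that of the table at full depth and above it after thinning. Thinning changed the depth and also the features tested, and these cannot be told apart here. Without oocyte 4 the number was 38 (12.7%), beside 17.3% of all features tested. The mean over the 5 segments was highest in oocyte 3 for 154 members, in oocyte 4 for 120, in oocyte 2 for 24 and in oocyte 1 for 2. For all features of the same minimum level these were 19.2% in oocyte 3, 24.5% in oocyte 4, 26.7% in oocyte 2 and 29.6% in oocyte 1. The median ratio of the highest to the lowest oocyte was 1.76 for members and 1.41 for all such features. Other vegetal features shared this. Among the 82 and the 159 described above, the mean was highest in oocyte 3 for 62.2% and 57.9%, against 51.3% of members. It was highest in oocyte 4 for 35.4% and 36.5%, against 40% of members. Their median ratios were 2.97 and 2.11, so the ratio was lower in the members than in either set.

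The steps between segments were fitted over the whole table with TMM scaling. All 300 members passed the filter on low counts. By edgeR's quasi-likelihood test (adjusted p below 0.05), D was higher than C in 217 of them, beside 2.42% of all 32302 features tested, and in 265 with the oocyte as a block (4.14%). E was higher than D in 121 (1.99%), and in 216 with the block (3.94%), among them all 121. E was higher than A in 295 (8.1%). The rule used these contrasts, so the numbers say only how large the chosen steps are beside the spread between oocytes. The E against D number fell to 12 without oocyte 2, which has the shallowest E library, and to 30 without oocyte 4. It was 40 without oocyte 1 and 113 without oocyte 3. Of all features, 642 were higher in E with every oocyte kept, and 103, 171, 199 and 511 in the same order. The fitted log2 fold change of AMEXTC_0340000178849 was 1.54 with every oocyte kept, and 1.45, 1.54, 1.51 and 1.78 in that order. Its adjusted p by the same test was 0.0022, and then 0.057, 0.046, 0.014 and 0.0048. For AMEXTC_0340000045372 the log2 fold change was 1.66, and then 1.54, 1.72, 1.58 and 1.96. Its adjusted p was 0.037 with every oocyte kept, and 0.18, 0.21, 0.17 and 0.031 in that order. The number for D against C fell to 88 without oocyte 4, 116 without oocyte 3, 119 without oocyte 2 and 196 without oocyte 1. Of all features, 783 were higher in D with every oocyte kept, and 187, 235, 294 and 632 in the same order. Whether these falls came from the oocyte left out or from having fewer oocytes was not tested. The fitted log2 fold change over the members had a median of 2.03 for D over C, a step that depends on the scaling, and 1.44 for E over D, against 0.00 and -0.05 over all features.

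How the low remainder was divided among A, B and C was not set by the rule, which limited their sum and asked for more CPM in E than in A. The mean was highest in C for 258 members (86%), in A for 27 and in B for 15, where all features with a mean of at least 5 CPM were split 33.9%, 35.1% and 31.0%. C exceeded B in all 4 oocytes in 143 members (47.7%, against 7.88% of all such features) and exceeded A in all 4 in 58 (19.3% against 8.11%). B exceeded A in all 4 in 11 (3.67% against 7.44%). By oocyte, C was above A in 183 members in oocyte 1 (61%), 104 in oocyte 2 (34.7%), 273 in oocyte 3 (91%) and 269 in oocyte 4 (89.7%). Of all features with a mean of at least 5 CPM, C was above A in 46.8%, 51.6%, 50.7% and 49.3% in the same order. So in oocyte 2 most members were not higher in C than in A. Other vegetal features shared this course. The median log2 ratio of the C mean to the A mean was 0.52 for members. It was 0.51 for the 82 and 0.29 for the 159 other vegetal features described above. By oocyte, from 1 to 4, the median log2 difference of C and A was 0.20, -0.15, 1.09 and 0.67 for members. For the 82 it was 0, -0.37, 0.93 and 0.42, and for the 159 it was 0.00, -0.22, 0.65 and 0.38.

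No single member passed edgeR's test in these contrasts, which does not show that the levels were equal. C against A, C against B and B against A each gave 0 members and 0 of all features (0%) by edgeR's quasi-likelihood test at an adjusted p below 0.05, also with the oocyte as a block. At an unadjusted p under 0.05, C was higher than B in 79 members (26.3%) and lower in 0, where 1.41% of all features differed in either direction. C against A gave 53 members (17.7%, all higher in C) against 1.59%, and B against A gave 6 (2%; 1 higher and 5 lower in B) against 1.04%. These fits left out the oocyte. With the oocyte as a block, C against B gave 86 members (28.7%, 85 higher in C) against 2.46% of all features. C against A then gave 69 (23%, 68 higher in C) against 3.64%, and B against A gave 7 (2.33%, 1 higher in B) against 2.42%. DESeq2 called 4 features for C against B (0.0124%), among them 1 member. It called 4 for C against A (0.0124%) and 9 for B against A (0.0279%), with 0 members in both. The median fitted log2 fold change of the members was 0.57 for C against B, 0.50 for C against A and -0.11 for B against A. Over all features it was 0.01, 0.01 and 0.00. On the authors' scaling the step from A to B turned, with 181 members called higher in B, beside 66.4% of all features. For the most abundant member, AMEXTC_0340000045372, C against A gave 0.87 (SE 0.41, adjusted p 1, edgeR).

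The authors' table of scaled values weights whole segments differently, and the members were read on it as well. There the mean library sum from A to E was 5049515, 12693517, 12873977, 3731997 and 2964381. On those values the members together summed to 23438 ± 2303, 55923 ± 4785, 82231 ± 23077, 89373 ± 40663 and 179048 ± 22951 from A to E (SD, n = 4). The highest segment mean was still in E for 296 of the 300, in C for 3 and in B for 1, while for all features with a mean of at least 5 CPM it was in E for 664 of 20742 and in C for 10978. The median share of a member became 39.6% for E, 20.7% for D and 19.7% for C, with 12.6% for B and 5.40% for A. D and E together kept at least 50% of the sum in 255 members, and E alone in 63. D and C lay close on this scale, where the D mean was above the C mean in 177 of the 300. With the authors' constants as scaling in edgeR, D was higher than C in 20 members (0.344% of all features) and lower in 14 (77.1%), B was higher than A in 181 (66.4%) and C higher than A in 259 (67.7%). The highest level in E was thus found on both scales, and the step from C to D depended on the scaling.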

How the data were processed

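RNA was sequenced from 20 libraries, 5 segments of each of 4 oocytes. The deposited raw counts per feature are whole numbers; the submitters' processing notes name Trimmomatic, STAR 2.5.3a, kallisto and DESeq2 without a role, and the annotation is not given in the sources used here. The authors' second deposited table holds a scaled signal, each value being the count times a constant per library: dividing by it gave whole reads (within 0.001) for 100% of values. How the constants were chosen is not stated. A count test on those reads with that scaling called 18715 features for E against A. The highest count of every feature was at least 30.

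The members and the lists were chosen with earlier results of these data known. Shares used CPM of column totals. Fits used R 4.3.3 and edgeR 4.0.16 (robust quasi-likelihood, TMM factors, filterByExpr keeping 32302 features, Benjamini-Hochberg over all of them, threshold 0.05), with segment as the sole factor. Standard errors were taken from the test statistic and are approximate. Alternatives were other scalings and filters, thinning, leaving out each oocyte, DESeq2 1.42.0, other limits of the rule and the oocyte as a block. Libraries of the same oocyte are paired per the labels; their deviations from segment means correlated with a median r of 0.311 (0.168 to 0.479, 40 pairs). The 2 most abundant members are named by rule, others by rank. The smallest library, segment E of oocyte 2, had counts for all 300 members, which the rule requires by asking for more CPM in E than in A. The fewest members with counts, 268, were found in segment B of oocyte 4, where their levels were low.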

Additional observations from a re-analysis of the deposited data

How the results depend on the processing

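The rule was met by 311 features. On the authors' scaled values 76 features met it, of which 56 were among the 311. A minimum D share of 25% left 119. TMM-scaled CPM gave 349 features with 262 of the 311, and thinning every library to the smallest total gave 307 with 263. Leaving out an oocyte gave from 230 to 340 features, and from 186 (without oocyte 3) to 280 of the 311 still met the rule. Thinning lowered the share of features in the vegetal order in the oocyte left out to a mean of 87.1%. For D against C, the members higher in D numbered 20 with the authors' constants, beside 111 of all features (0.344%). With an oocyte left out they numbered from 88 to 196, beside 187 to 632 of all features. For E against D, the members higher in E numbered 216 with the replicate block, 184 with DESeq2 and 51 at an adjusted p under 0.01. Of all features, 1272, 1126 and 270 were higher in E in the same settings. Without an oocyte in turn, from 12 to 113 members were higher in E, beside 103 to 511 of all features. With the authors' constants, 259 members were higher in C than in A, beside 67.7% of all features. On the same scaling 181 were higher in B than in A, beside 66.4% of all features. DESeq2 gave 1 member for C against B, among 4 features called (0.0124%). Members that differed between oocytes numbered 32 at an adjusted p under 0.01 (10.7%, beside 16.4% of all features). With an oocyte left out they numbered from 38 to 57 (12.7% to 19%, beside 17.3% to 21.7%). With thinned libraries they numbered 71 of 290 tested (24.5%, beside 20.3%). For AMEXTC_0340000178849 the D against C log2 fold change was -0.52 with the authors' constants. The block changed no other number of members by more than 1.5 times. Where no cause is named, the cause was not tested.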

Other observations

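Few members had very low counts in all 4 libraries of a segment. At most 3 counts in all 4 libraries of A were found for 2 members and in all 4 of B for 1, and no member (0) had 0 counts throughout A, B or C. This limit is strict in deep libraries such as A of oocyte 4 (15554319 counts). It therefore does not show that low levels were rare. Counts were found for 276 members in A of oocyte 1 and 268 in B of oocyte 4, against 299 in A of oocyte 4. The share of A, B and C together was under 10% in 59 members. Every member had counts in all 4 libraries of E, as the rule requires, and the lowest count was 6. In D, 4 members had a library with 0 counts.

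The member of rank 278 had the highest E share, 75.95%. It was looked up after its values were seen. No value among 25 groups of 4 libraries (the summed level by segment and 4 members shown by segment) stood far from the other 3, where chance gives about 1.25 such groups.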
